A study of Rattus norvegicus with 16 samples.

Results

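The angiopoietins and vascular endothelial growth factors (VEGFs) are secreted ligands that act through receptor tyrosine kinases on blood and lymphatic vessels, and 9 of their genes were followed here in cultured rat pituitary cells. They were taken by symbol: Angpt1, Angpt2, Vegfa, Vegfb and Vegfc for the ligands, and Tek, Tie1, Kdr and Flt1 for the receptors. A gene was measured where the array's annotation held a probe set with that symbol alone, which gave 7 of 9 genes, or 7 of the 14557 genes measured under a single symbol. Vegfa and Kdr had no such probe set and were not analysed here. Probe sets of a gene were to be selected on their mean log2 level over the 16 arrays, but each of the 7 genes had 1, so that signal decided no choice. The genes were proposed with results of these data known, so their differences are given as a description beside the fit over all genes.

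Glands of Wistar rats aged 21 days were the source of the cells, which are labelled as isolated corticotropes. They were taken from collagenase-treated gland cultures on beads carrying an anti-CRHR1 antibody (the series' design text names anti-CRH), and all groups were grown in serum (10%, fetal bovine) plus FGF at 0.05 µg/l, itself a growth factor for vascular cells. There were 4 control arrays, without a stated culture time, and 4 arrays each from cells exposed for 24 h to CRH (corticotropin-releasing hormone), IL-6 (interleukin-6) or eNampt (extracellular nicotinamide phosphoribosyltransferase). Doses are not stated in the sources used. Nothing in the labels tells separate cultures or animals from repeat preparations within a group, so the p-values reflect the spread among these arrays alone, and it may be technical.

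In vessels, Angpt1 made by cells of the vessel wall activates the receptor Tie2, the product of Tek, and steadies endothelium, while Angpt2 can block that signal. Vegfb binds the receptor encoded by Flt1, and Vegfc acts mainly through Flt4, the receptor of lymphatic endothelium. The anterior pituitary has dense fenestrated capillaries, and VEGF was early purified from medium of bovine folliculostellate cells, the non-hormonal support cells of the gland.

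Values are log2 levels per probe set, made by the authors with RMA. The array medians ran from 1.82 to 2.02, and a probe set near that level has little signal over background. Control arrays 3 and 4 stood apart, whose 90th percentiles were 4.58 and 4.43. Control arrays 1 and 2 reached 5.37 and 5.51, and the 12 ligand arrays 5.07 to 5.45. The median difference from control over all 14557 genes was 0.102 for CRH, 0.086 for IL-6 and 0.064 for eNampt (log2). Over the 8675 genes whose mean lay above the median of all values it was 0.205, 0.227 and 0.279. Angpt1, Angpt2, Vegfb and Vegfc are among these brighter genes, and values of the family are read against both sets of medians. Of the corticotrope markers, Pomc, the ACTH precursor gene, had group means of 7.73 to 8.45, while Tbx19, the lineage transcription factor of these cells, lay below the array median on 15 of 16 arrays. Prl, the prolactin gene of lactotropes, had group means of 10.64 to 10.95. Since an array averages over its cells, more cells of a type and more RNA per cell cannot be told apart.

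The promoters of the 2 VEGF ligand genes that were measured are shown, because both genes were above the median of every array, and Vegfa, the best known gene of the group, is induced by the hypoxia-inducible factor (HIF). Of the 7 genes, 4 had a promoter in the RefSeq table (build GRCr8). Each sequence is the 250 bases before the annotated start, 5′ to 3′ on the gene's strand. Capitals mark the cores of the hypoxia response element, ACGTG or GCGTG, read on both strands. The Vegfb window lies at chr1:213607153-213607402 and the Vegfc window at chr16:44560888-44561137, both on the minus strand.
Vegfb: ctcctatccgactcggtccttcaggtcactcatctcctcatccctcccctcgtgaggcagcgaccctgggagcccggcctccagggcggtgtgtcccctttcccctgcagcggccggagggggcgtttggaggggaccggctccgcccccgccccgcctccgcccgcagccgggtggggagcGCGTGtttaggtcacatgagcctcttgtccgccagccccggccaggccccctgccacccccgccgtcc
Vegfc: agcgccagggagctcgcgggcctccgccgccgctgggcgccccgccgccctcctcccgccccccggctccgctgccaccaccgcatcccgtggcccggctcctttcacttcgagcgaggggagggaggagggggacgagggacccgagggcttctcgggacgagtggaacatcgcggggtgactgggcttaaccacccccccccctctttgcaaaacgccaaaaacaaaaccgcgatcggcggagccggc
The Vegfb window holds 1 match to GCGTG, which begins 68 bases before the start, and no match to ACGTG. The Vegfc window holds neither core, and neither window holds the NF-kB consensus. Of the other 2 family promoters in the table, which are not printed, that of Flt1 holds the NF-kB consensus 135 bases before the start, read on both strands, and GCGTG at 227 bases, and that of Tie1 holds none of the 3 motifs. Of all 33469 promoters of the table, cut to the same length, 16.6% hold ACGTG, 25.9% hold GCGTG and 6.33% hold the NF-kB consensus. The matches describe letters in these windows only.

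Angpt1 had the largest differences of the 7 genes. On the 4 control arrays its level was 4.75, 1.84, 3.90 and 2.46, in the order of the array numbers. After eNampt it was 5.22, 4.98, 5.81 and 5.83. All 4 eNampt arrays lay above all 4 control arrays, and the eNampt arrays lay close together (mean 5.46 ± 0.42, SD, n = 4) where the controls were scattered (3.24 ± 1.33). The log2 difference was 2.22 ± 0.74 (SE), or 4.66-fold with a 95% interval of 1.56 to 13.9. It did not pass over all genes (limma adjusted p = 0.506, unadjusted p = 0.00904). Over all genes, 2.81% had every eNampt array above every control array.

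After CRH, Angpt1 was at 4.08, 4.15, 4.52 and 2.51, and after IL-6 at 2.76, 6.37, 5.23 and 4.30. All 4 CRH arrays lay within the range of the controls, while the IL-6 arrays covered the widest range of the 4 groups, 3.61 on the log2 scale. The differences from control were 0.58 ± 0.74 for CRH (adjusted p = 0.903) and 1.43 ± 0.74 for IL-6 (adjusted p = 0.860), with 95% intervals of -0.998 to 2.15 and -0.15 to 3.00. Single arrays moved both values. For CRH the difference was 0.11 without control array 2, 0.32 without control array 4 and 0.34 without CRH array 3, and 1.08 without control array 1 and 1.01 without CRH array 4. For IL-6 it ran from 0.86 without IL-6 array 2 to 2.06 without IL-6 array 1. By group mean the order was control, CRH at 3.82, IL-6 at 4.67 and eNampt, and no neighbours in this order differed beyond their spread (limma unadjusted p = 0.446, 0.267 and 0.298). The intervals that left out 0 were those of eNampt against control and against CRH.

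Against CRH, which shares no control array, Angpt1 was 1.64 ± 0.74 higher after eNampt, and again all 4 eNampt arrays lay above all 4 CRH arrays, as for 1.22% of all genes. This difference did not pass either (adjusted p = 0.943, unadjusted p = 0.0419). The moderated F test over the 3 ligands gave Angpt1 an adjusted p of 0.936 (unadjusted p = 0.0436).

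**Figure D1:**
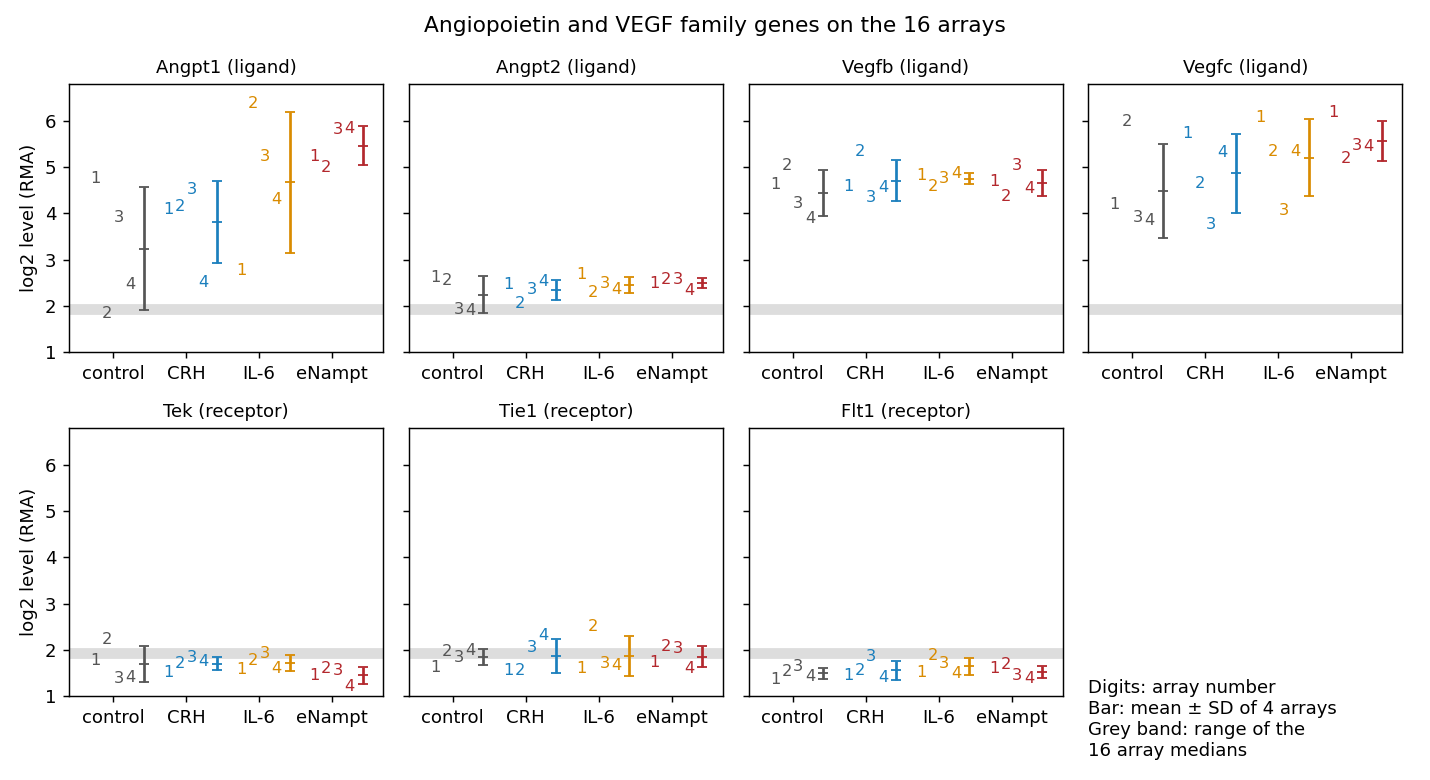
Log2 level (RMA) of the 7 measured genes on each array, by group; digits are array numbers, bars the mean ± SD of 4 arrays, and the grey band the range of the 16 array medians (1.82 to 2.02). Angpt1 on the eNampt arrays sits between 4.98 and 5.83, above every control array, while Flt1 lies below the array median throughout.

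Angpt2, which encodes the context-dependent counterpart of Angpt1 at the same receptor, was dim. Its control levels were 2.62, 2.56, 1.91 and 1.90, with the 2 lower values on control arrays 3 and 4. The CRH arrays read 2.47, 2.05, 2.34 and 2.53, the IL-6 arrays 2.69, 2.30, 2.49 and 2.35, and the eNampt arrays 2.49, 2.58, 2.58 and 2.33. Only IL-6 array 1 lay outside the range of the controls, and all groups overlapped. The differences from control were 0.10 ± 0.18, 0.21 ± 0.18 and 0.25 ± 0.18 for CRH, IL-6 and eNampt (adjusted p = 0.934, 0.895 and 0.774). Without control arrays 3 and 4 all 3 turned negative, at -0.24, -0.13 and -0.093.

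Vegfb, a ligand of the receptor encoded by Flt1, was well above the array medians everywhere. It was at 4.62, 5.03, 4.22 and 3.89 on the control arrays and at 4.58, 5.34, 4.34 and 4.55 after CRH. After IL-6 it was at 4.81, 4.58, 4.74 and 4.86, and after eNampt at 4.69, 4.35, 5.02 and 4.53. The lowest level was that of control array 4, and all ligand groups overlapped control. The differences were 0.26 ± 0.25, 0.31 ± 0.25 and 0.21 ± 0.25 (adjusted p = 0.861, 0.892 and 0.873), and the interval after eNampt ran from -0.33 to 0.75. Without control arrays 3 and 4 they were -0.12, -0.082 and -0.18.

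Vegfc, the ligand of lymphatic endothelium, varied more. Its control levels were 4.20, 5.98, 3.91 and 3.84, where control array 2 stood above the other 3. The CRH arrays read 5.72, 4.65, 3.76 and 5.31, the IL-6 arrays 6.07, 5.34, 4.06 and 5.34, and the eNampt arrays 6.19, 5.19, 5.46 and 5.43. All 4 eNampt arrays lay above control arrays 1, 3 and 4, and 3 of them lay below control array 2. The difference of eNampt from control was 1.08 ± 0.53, or 2.12-fold with an interval of 0.958 to 4.68 (adjusted p = 0.679, unadjusted p = 0.0618). CRH and IL-6 gave 0.38 ± 0.53 and 0.72 ± 0.53 (adjusted p = 0.914 and 0.871).

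The value of Vegfc turned on which controls were used. After eNampt it was 1.58 without control array 2 and 0.47 without control arrays 3 and 4. After CRH it was 0.88 and -0.23, and after IL-6 1.22 and 0.11, in the same order. Single ligand arrays moved it too, for CRH to 0.092 without array 1 and 0.74 without array 3, and for IL-6 to 0.43 without array 1 and 1.10 without array 3. The group means ran from 4.48 in control through 4.86 after CRH and 5.20 after IL-6 to 5.57 after eNampt, with no neighbours that differed beyond their spread (limma unadjusted p = 0.491, 0.531 and 0.509).

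**Figure D2:**
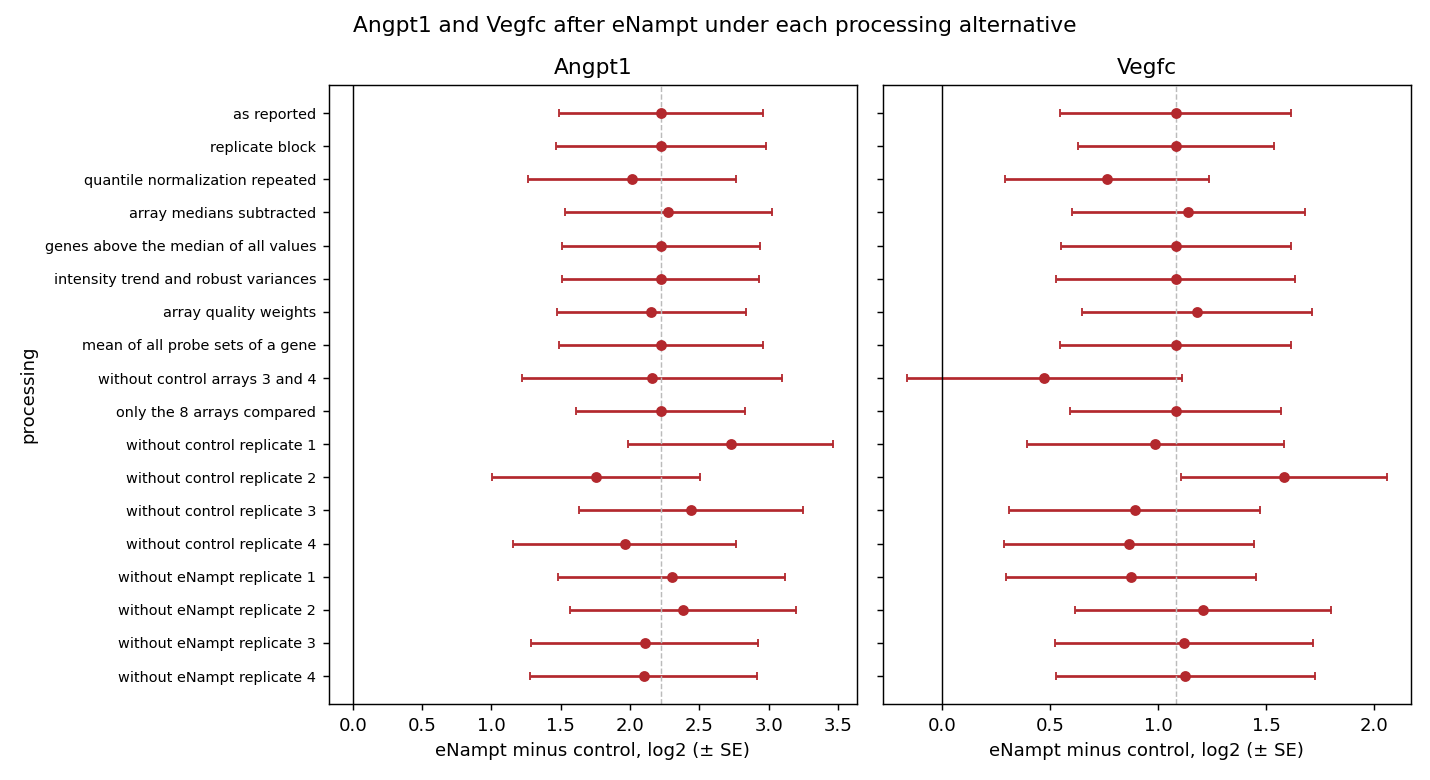
Difference of eNampt from control on the log2 scale (± SE) for Angpt1 and Vegfc, as reported and under each alternative; the dashed line is the value as reported. Angpt1 stays between 1.76 and 2.73, while Vegfc runs from 0.47 without control arrays 3 and 4 to 1.58 without control array 2.

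The 3 receptors were at or below the level of the array medians. Tek, which encodes the angiopoietin receptor Tie2, lay below its array's median on 15 of 16 arrays. The control arrays read 1.77, 2.23, 1.39 and 1.40 and the CRH arrays 1.50, 1.71, 1.83 and 1.75. The IL-6 arrays read 1.58, 1.76, 1.93 and 1.60 and the eNampt arrays 1.45, 1.61, 1.56 and 1.20. Control array 2 was the highest, eNampt array 4 the lowest, and the groups overlapped. The differences were 0.0027 ± 0.18, 0.020 ± 0.18 and -0.24 ± 0.18 (adjusted p = 0.998, 0.994 and 0.774).

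Tie1, which encodes the related receptor that modulates Tie2, lay below the median on 9 of 16 arrays, with a range of 1.56 to 2.50. Its group means were 1.85, 1.87, 1.87 and 1.85 in control, CRH, IL-6 and eNampt, and the highest array was IL-6 array 2. The differences from control were 0.020, 0.016 and 0.0040, each ± 0.23 (adjusted p = 0.989, 0.996 and 0.997). Flt1, the VEGF receptor that binds Vegfb, lay below the median on all 16 arrays, between 1.37 and 1.88. Its differences were 0.072, 0.15 and 0.030, each ± 0.14 (adjusted p = 0.939, 0.906 and 0.973). With signal this low, a response of the receptors could be missed.

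**Figure D3:**
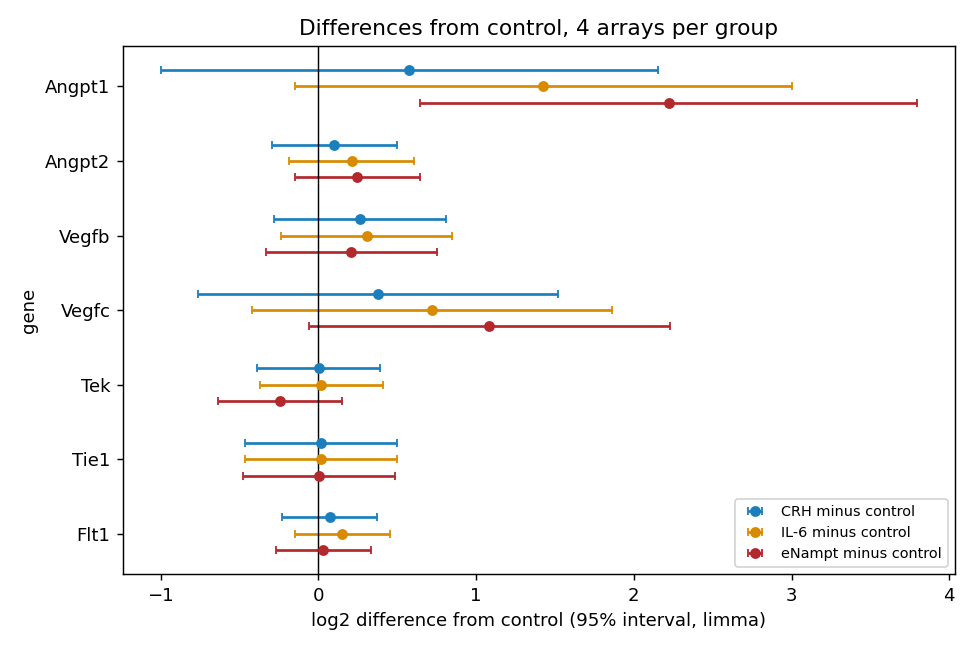
Log2 difference from control with its 95% interval (limma) for each measured gene after CRH, IL-6 and eNampt, 4 arrays per group. The interval of Angpt1 after eNampt, 0.65 to 3.80, is the 1 of 21 that leaves out 0.

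Over the whole family, limma called 0 of 7 genes with CRH, 0 of 7 with IL-6 and 0 of 7 with eNampt at an adjusted p under 0.05, where 0%, 0.00687% and 0.0137% of all genes were called. At an unadjusted p under 0.05 the counts were 0, 0 and 1 (Angpt1, higher), where 6.33%, 5.54% and 7.55% of all genes passed. Between ligands 0 of 7 were called in each pair, against 0.0137% of all genes between eNampt and CRH, 0.0137% between eNampt and IL-6 and 0% between CRH and IL-6. The unadjusted counts were 1, 0 and 0, beside 4.93%, 3.37% and 3.97% of all genes. The F test over the 3 ligands called 0 of 7, against 0.0206% of all genes, with 1 at an unadjusted p under 0.05 beside 5.14%.

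With CRH 7 of 7 genes were higher than control, with IL-6 7 and with eNampt 6, where 65.7%, 63.2% and 58.3% of all genes were. The median differences were 0.10, 0.21 and 0.21. The counts moved with the controls. Without control arrays 3 and 4, chosen as an alternative after these arrays were seen to stand apart, 3, 4 and 4 of the 7 genes were higher, beside 53.0%, 48.0% and 44.6% of all genes, and the medians were -0.12, 0.077 and 0.065. The 3 comparisons share their control arrays. In the comparisons without control, 3 of 7 were higher after eNampt than after CRH, beside 42.9% of all genes. Against IL-6, 3 of 7 were higher after eNampt, beside 47.5%. After CRH 1 of 7 was higher than after IL-6, beside 54.9%, with 0 of 7 called.

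Vegfc and Angpt1 stayed the 2 genes with the largest positive differences after eNampt in that alternative, at 0.47 and 2.16. There 2 genes had an unadjusted p under 0.05, Angpt1 (higher) and Tek (lower, at -0.54), and neither was called. Among all 14557 genes, 328 passed that threshold as higher and 470 as lower in the same alternative, where 44.6% of all genes were higher.

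The partners of the family were taken from a list of 12 genes, 9 of them measured. None was called after any ligand. At an unadjusted p under 0.05, where 6.33%, 5.54% and 7.55% of all genes passed, CRH had 0, IL-6 0 and eNampt 1. That gene was Itgb3, the integrin beta 3 subunit found on growing vessels and platelets. Its mean was 2.34 ± 0.33 (SD, n = 4) after eNampt and 4.44 ± 1.00 in control, with all eNampt arrays below all control arrays, as for 1.33% of all genes (log2 difference -2.10 ± 0.75, limma adjusted p = 0.548). Without control arrays 3 and 4 the difference was -2.76.

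The Vegfc receptor gene Flt4 had a mean of 2.64 in control. With CRH it was 2.68, with IL-6 2.64 and with eNampt 3.02 (0.38 ± 0.29 against control, adjusted p = 0.777). That difference was 0.038 without control arrays 3 and 4. Pgf, the gene of placental growth factor, another ligand of the Flt1 receptor, was at 3.14 ± 1.24 after IL-6 and 4.19 ± 0.90 in control (-1.05 ± 0.73, adjusted p = 0.865), and at 5.12 ± 0.86 after eNampt. Angpt4, a further angiopoietin gene, was 0.36 ± 0.26 above control after IL-6 (adjusted p = 0.871). Shc1 and Grb14, adaptor genes of receptor kinases, were at 0.35 and -0.37 after CRH (adjusted p = 0.914 and 0.847), and at -0.35 and -0.57 without control arrays 3 and 4, where Shc1 had the opposite sign. The median of the list was 0.043 with CRH, -0.0048 with IL-6 and 0.33 with eNampt, with 6, 4 and 7 of 9 genes higher. Of all genes 65.7%, 63.2% and 58.3% were higher. Without those control arrays the medians were -0.25, -0.31 and 0.038, so the sign for CRH also turned. Then 2, 3 and 6 of 9 were higher, beside 53.0%, 48.0% and 44.6% of all genes.

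Genes that respond in endothelium (13 of 16 measured) had 0 called after each ligand. At an unadjusted p under 0.05, passed by 6.33%, 5.54% and 7.55% of all genes, there were 1 (CRH), 0 (IL-6) and 1 (eNampt). After CRH this was Kcne3, a potassium channel subunit of endothelial tip cells, at 0.37 ± 0.12 (adjusted p = 0.677). It lay above control on all CRH arrays, as for 2.05% of all genes, though with group means of 1.42 and 1.05 it was below the array medians. After eNampt it was Klf4, a transcription factor gene of many cell types, with means of 4.45 ± 0.40 and 3.04 ± 1.09 (1.41 ± 0.53, adjusted p = 0.575). Klf4 was at 0.92 ± 0.53 after IL-6 (adjusted p = 0.860). Notch4, Klf2 and Dll4, genes of vessel identity and flow, were the members with the lowest moderated statistic after CRH, IL-6 and eNampt, at -0.26, -0.24 and -0.31 (adjusted p = 0.847, 0.911 and 0.778). Dll4 lay below the array median on 12 of 16 arrays. With control arrays 1 and 2 alone Notch4, Klf2 and Dll4 were at -0.58, -0.42 and -0.035. The medians of the list were 0.18, 0.21 and 0.093, and 0.050, 0.045 and -0.035 against those 2 arrays.

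Of the genes of oxygen sensing and HIF, 15 of 17 were measured and 0 were called after any ligand. At an unadjusted p under 0.05 there were 2 with CRH, 3 with IL-6 and 1 with eNampt. Of all genes, 6.33%, 5.54% and 7.55% passed. Hif1an, a hydroxylase that restrains HIF, was 1.04 ± 0.33 higher after IL-6 (adjusted p = 0.798). Ankrd37, a HIF target, was 1.02 ± 0.45 higher after eNampt (adjusted p = 0.651) and 1.32 ± 0.45 higher after IL-6 (adjusted p = 0.842). Ddit4, a stress-inducible inhibitor of mTOR, was 0.78 ± 0.35 higher after CRH (adjusted p = 0.778). Hif3a, a further subunit of the factor, was lower in all 3, at -0.41, -0.31 and -0.38 (adjusted p = 0.777, 0.865 and 0.679), and it was near the array medians. After eNampt all its arrays lay below all control arrays, as for 1.33% of all genes, and after IL-6 it was at -0.19 without control arrays 3 and 4. The medians of the list were 0.18, 0.53 and 0.24, and 0.027, 0.28 and 0.081 without control arrays 3 and 4.

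Other angiogenic factors (15 of 20 measured) were higher than control in 13 of 15 members after each ligand, with medians of 0.44, 0.43 and 0.53. Over all genes 65.7%, 63.2% and 58.3% were higher after CRH, IL-6 and eNampt. Without control arrays 3 and 4 the counts were 9, 8 and 9 of 15, beside 53.0%, 48.0% and 44.6% of all genes. The medians were then 0.017, 0.015 and 0.13. None of the 15 was called. Against all control arrays 3, 1 and 2 had an unadjusted p under 0.05, where 6.33%, 5.54% and 7.55% of all genes passed. Pdgfa and Pdgfc, platelet-derived growth factor genes that recruit and feed mural and mesenchymal cells, were at 1.04 ± 0.40 after CRH and 1.15 ± 0.54 after IL-6 (adjusted p = 0.765 and 0.860), and Pdgfa was at 0.46 without control arrays 3 and 4. Hgf, the hepatocyte growth factor gene, was at 0.57 ± 0.25 after eNampt (adjusted p = 0.631). With group means of 1.11 in control and 1.68 after eNampt, it lay below the array median on 15 of 16 arrays. Its highest level, 2.62, was on 1 eNampt array, so its difference leans on that array. Pdgfb had the lowest statistic after each ligand, at -0.21, -0.32 and -0.34 (adjusted p = 0.949, 0.937 and 0.890). Without those control arrays Pdgfb was at -1.08, -1.20 and -1.22, and it was again not called (limma adjusted p = 0.895, 0.833 and 0.807, unadjusted p = 0.0234, 0.0140 and 0.0128).

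Inhibitors of angiogenesis (11 of 14 measured) had medians of 0.12, 0.42 and 0.35 with 0 called, and 0, 1 and 2 at an unadjusted p under 0.05. Of all genes, 6.33%, 5.54% and 7.55% passed. Serpinf1, the gene of pigment epithelium-derived factor, was at 6.77 ± 0.48 after eNampt against 5.35 ± 1.20 in control (1.42 ± 0.51, adjusted p = 0.555), and at 0.86 without control arrays 3 and 4. It was at 0.83 ± 0.51 after CRH (adjusted p = 0.827), and at 0.27 without those arrays. Vash1, the vasohibin gene, was at 0.86 ± 0.32 after IL-6 (adjusted p = 0.860). Sema3f, the gene of a repellent ligand that acts through neuropilins, was the lowest by statistic after CRH and IL-6, at -0.50 and -0.57 (adjusted p = 0.858 and 0.894; -0.86 and -0.93 without those arrays), and Col4a3 after eNampt at -0.12 (adjusted p = 0.912).

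**Figure D4:**
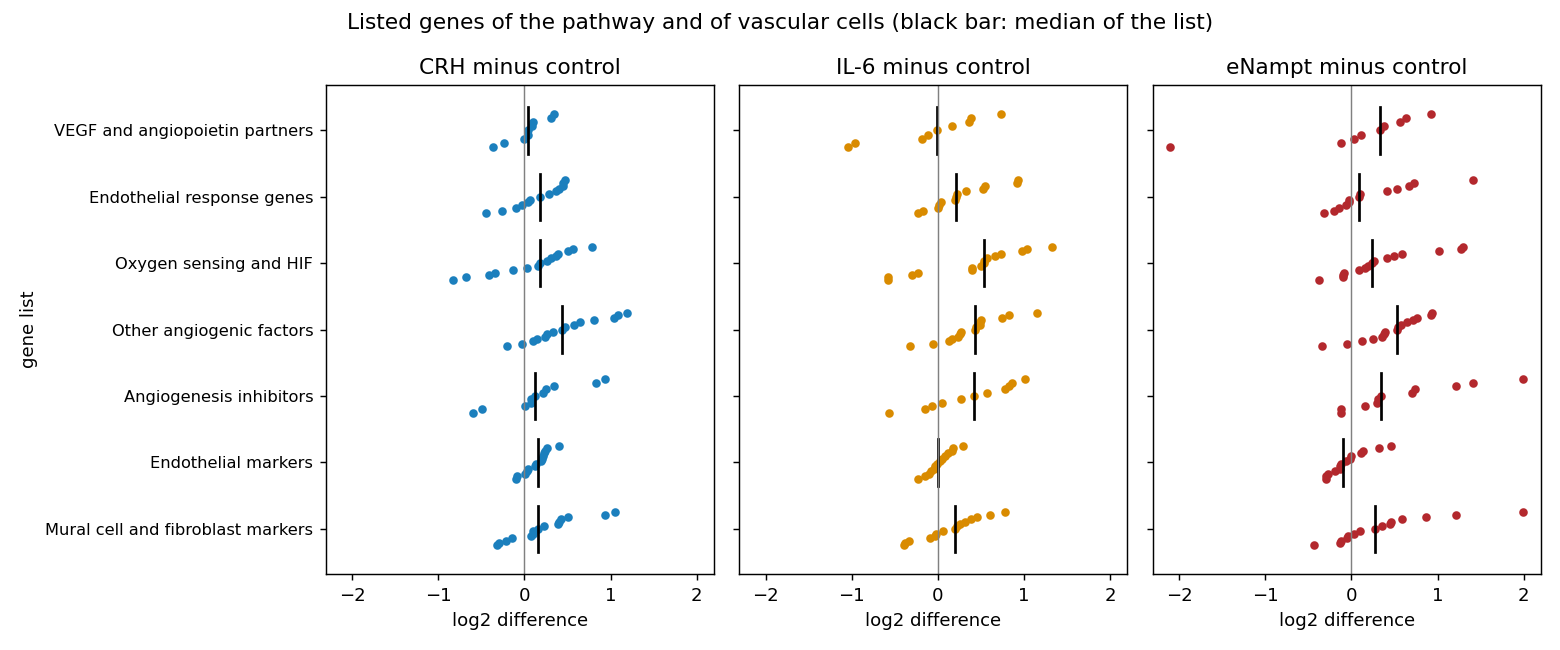
Log2 difference from control of each listed gene (points) after CRH, IL-6 and eNampt, by gene list, with the median of each list as a black bar; family genes are left out of the endothelial markers. The eNampt panel holds the lowest point, Itgb3 at -2.10.

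Markers of the cells that make or receive these signals were set beside the family. Of the endothelial markers other than the family genes, 14 of 17 were measured, and their mean log2 level per array ran from 1.59 to 1.77 in control. It ran from 1.73 to 1.97 with CRH, 1.61 to 1.84 with IL-6 and 1.59 to 1.77 with eNampt. The list thus lay at or below the array medians in every group, as Tek, Tie1 and Flt1 did. Vwf, the von Willebrand factor gene, was below the median on 16 of 16 arrays and Cdh5 and Cldn5, junction genes of endothelium, on 15 each. Egfl7 was above it on all arrays, with group means of 2.44 to 2.76.

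Markers of mural cells and fibroblasts, 15 of 17 measured, were brighter. Their array means ran from 3.79 to 4.54 in control, 4.35 to 4.76 with CRH, 3.97 to 4.56 with IL-6 and 4.35 to 4.86 with eNampt. Tagln, a smooth muscle actin-binding gene, had group means of 10.12 to 10.31, and the collagen gene Col1a1 of 6.59 to 7.02. Other members were dim. Des and Abcc9 lay below the array median on 11 and 9 of 16 arrays, and Kcnj8 had group means of 2.04 to 2.29. Of the list, 7 of 15 lay above the median on all 16 arrays. Dcn, the gene of the matrix proteoglycan decorin, which is also on the list of inhibitors, was at 5.72 ± 0.62 after eNampt and 3.73 ± 1.43 in control, without overlap of the arrays, as for 2.81% of all genes (1.99 ± 0.78, limma adjusted p = 0.611). Dcn was at 4.67 after CRH and 4.51 after IL-6. After eNampt 2 of the 15 markers lay above control without overlap and 1 below, beside 2.81% and 1.33% of all genes. The lowest difference after eNampt was that of Des, -0.43, with means of 1.74 after eNampt and 2.18 in control. Of the list, 10 of 15 were higher than control after eNampt with a median of 0.28, beside 58.3% of all genes. Without control arrays 3 and 4, 7 of 15 were higher with a median of -0.044, beside 44.6% of all genes. Dcn was at 2.47 in that alternative (limma adjusted p = 0.855). The part of these cells in the difference of Angpt1 was not tested.

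Folliculostellate and stem cell markers (9 of 12 measured) had array means of 4.55 to 5.61 in control and 4.69 to 5.92 with CRH. The means were 5.06 to 5.80 with IL-6 and 5.18 to 5.85 after eNampt. Anxa1, an annexin gene of the list, had group means of 8.47 to 8.87, and S100b of 2.40 to 2.80. Fxyd1 was at 2.06 ± 0.62 in control and 5.25 ± 2.32 after CRH (3.19 ± 1.14, limma adjusted p = 0.730). It was at 4.82 after IL-6 and 3.62 after eNampt, and its difference after CRH was the highest of the list, whose median there was 0.043. After CRH, IL-6 and eNampt 7, 6 and 8 of 9 markers were higher than control, beside 65.7%, 63.2% and 58.3% of all genes. Without control arrays 3 and 4 the counts were 2, 4 and 3 of 9, beside 53.0%, 48.0% and 44.6%. The median after CRH was then -0.38. Of the list, 7 of 9 lay above the median on every array. Leukocyte markers (11 of 12 measured) ran from 1.97 to 2.57 in control and 1.92 to 2.37 after eNampt, and Ptprc, the pan-leukocyte gene, lay below the array median on 16 of 16 arrays. The 2 of 11 that lay above it on all 16 arrays were Cd14 and Tyrobp, at group means of 3.41 to 4.58 and 2.17 to 2.42. The part of these cell types in the levels of the family was not tested.

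**Figure D5:**
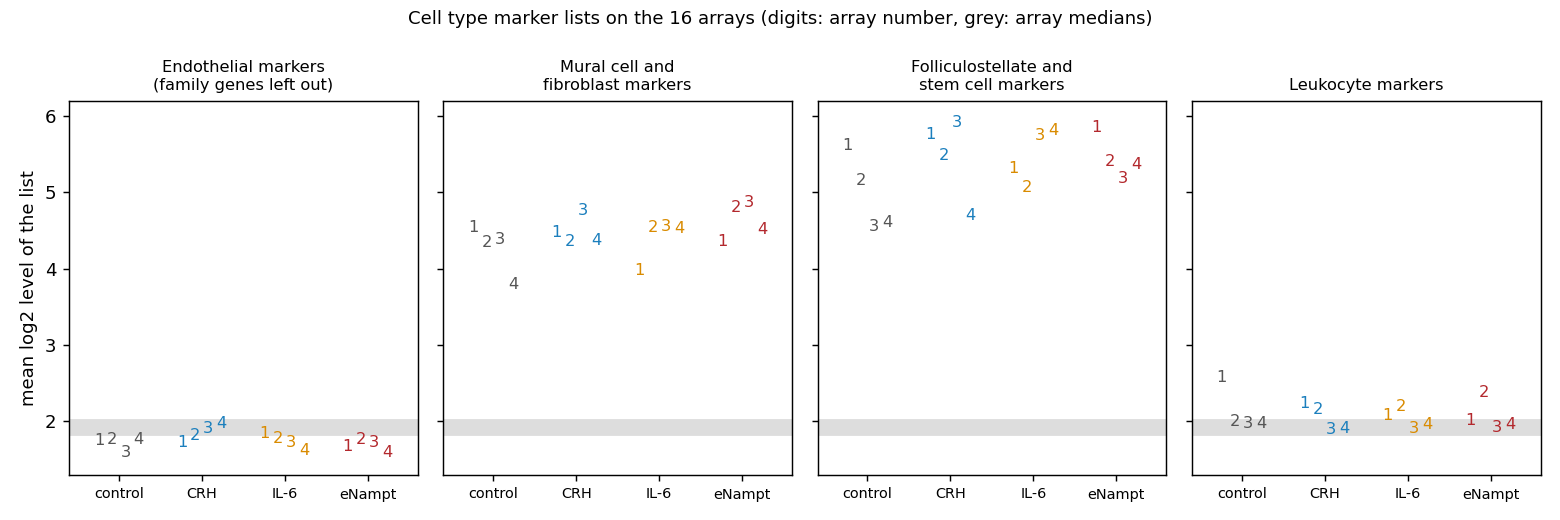
Mean log2 level of 4 cell type marker lists on each array, by group; digits are array numbers and the grey band the range of the array medians. Endothelial markers without the family genes lie between 1.59 and 1.97, and mural and fibroblast markers between 3.79 and 4.86.

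The genes whose levels over the 16 arrays were most like those of each family gene are given as a description, since the arrays share group and array quality and the genes were picked for the likeness. For Angpt1 they were Gna12, Bcl9l and Ptpn14 (Pearson r = 0.893, 0.882 and 0.851, n = 16 arrays). For Angpt2 they were Rnpep, Ripk3 and Ccnh (r = 0.880, 0.868 and 0.842), and for Vegfb Dlg5, Nop9 and Brd2 (0.898, 0.888 and 0.855). For Vegfc they were Unc50, Acp6 and Ruvbl1 (0.879, 0.852 and 0.840). The lists of 3 did not share a gene. For the dim receptors they were Or8b3c, Msh5 and Mex3a for Tek (0.857, 0.857 and 0.826), Pde3a, Aspdh and Tex29 for Tie1 (0.822, 0.819 and 0.812), and Med16, Mtbp and Pramel6 for Flt1 (0.799, 0.779 and 0.778).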

How the data were processed

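The authors deposited 1 table of log2 levels for 36685 probe sets on 16 arrays, for which the submitters' processing notes name RMA. Labelled target came from 5 ng RNA, per the labels' protocols. No RMA version or genome build is stated in the sources used. Symbols came from the platform annotation (14824 probe sets with 1 symbol, 829 with several, 21032 with none in the annotation used) and were updated through Entrez identifiers (14670 matched). The brightest probe set stood for a gene, which left 14557 genes without a filter on dim signals. All tests used limma 3.58.1 in R 4.3.3 on 1 mean per group over all 16 arrays (12 residual and 2.28 prior degrees of freedom), two-sided, with Benjamini-Hochberg adjustment over all genes and a threshold of 0.05. The number of arrays limits the precision: the median residual SD was 0.409 (log2). The fit was also run on simulated data with independent normal noise for each gene. Those data held no differences in quality between arrays, so the run does not bear on control arrays 3 and 4. Promoters were read from a RefSeq table with Python 3.11.15.

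The family genes, the gene lists and the alternatives were chosen with earlier results of these data known. All family genes and Pomc were named. For each pathway list and ligand the rule named up to 4 called genes or, where none passed, the 1 gene each way with the largest moderated statistic, and for likeness the 3 genes with the highest Pearson r, leaving out predicted loci. Marker genes, and Flt4, Pgf, Klf4 and Ankrd37 outside their ruled comparisons, were named after their values were seen. Leaving out single arrays, other scalings, filters, variance models, array weights, a replicate block and leaving out control arrays 3 and 4 were tried as alternatives.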

Additional observations from a re-analysis of the deposited data

Results flagged for a closer look

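Of 28 groups of 4 arrays (7 genes in 4 groups), 2 held an array far from the other 3 by Dixon's test at the 95% level, where chance flags about 1 in 20 groups. Vegfc on control array 2 was at 5.98 against 3.84 to 4.20 on the other control arrays, and without that array its difference after eNampt was 1.58 in place of 1.08. Tie1 on IL-6 array 2 was at 2.50 against 1.59 to 1.71 on the other IL-6 arrays, and without it the difference of IL-6 from control was -0.19 in place of 0.016.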

How the results depend on the processing

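No family gene was called in any comparison under any alternative run, and the smallest adjusted p was 0.276 (limma, Vegfc after eNampt without control array 2). For eNampt against control, Angpt1 kept its sign in all 17 alternatives, from 1.76 without control array 2 to 2.73 without control array 1, with adjusted p of 0.287 to 0.911. Vegfc kept its sign there too, from 0.47 to 1.58. With the replicate block Angpt1 gave 2.22 (adjusted p = 0.474) and Vegfc 1.08 (adjusted p = 0.565), and the count over all genes for eNampt against control went from 2 to 4; it was 4 with quantile normalization, 5 with the filter on dim genes and 0 without control arrays 3 and 4. Of 24 pairs of same-numbered arrays, 8 had deviations correlated over 0.1 (r of -0.184 to 0.305, median 0.031), against 9 of 72 other pairs (median -0.0097). Since this did not hold for every pair, the numbers are not taken as pairs.

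Small differences changed sign (log2 values; the cause was not tested). Quantile normalization repeated turned the sign of Tek -0.026 (CRH against control), Vegfb -0.12 (eNampt against control), Tie1 0.057 and Flt1 0.036 (eNampt against CRH), Tie1 0.046 (eNampt against IL-6) and Tie1 -0.011 (CRH against IL-6). Array medians subtracted turned the sign of Tek -0.019 and Tie1 -0.0017 (CRH against control), Tie1 0.062, Vegfb 0.024 and Flt1 0.036 (eNampt against CRH), Tie1 0.037 (eNampt against IL-6) and Tie1 -0.026 (CRH against IL-6). Array quality weights turned the sign of Tek -0.026 and Tie1 -0.062 (CRH against control), Tie1 -0.023 (eNampt against control), Tie1 0.039 (eNampt against CRH) and Tie1 -0.077 and Vegfc 0.013 (CRH against IL-6). Leaving out control arrays 3 and 4 turned the sign of Angpt2 -0.24, Tek -0.30, Vegfb -0.12 and Vegfc -0.23 (CRH against control), Angpt2 -0.13, Tek -0.28 and Vegfb -0.082 (IL-6 against control) and Angpt2 -0.093 and Vegfb -0.18 (eNampt against control). Leaving out single arrays of the groups compared gave ranges across 0. For CRH against control these were Tie1 -0.12 to 0.12, Angpt2 -0.014 to 0.22, Tek -0.10 to 0.18 and Flt1 -0.025 to 0.13. For IL-6 against control these were Tie1 -0.19 to 0.11 and Tek -0.083 to 0.20. For eNampt against control these were Tie1 -0.074 to 0.091 and Flt1 -0.021 to 0.080. For CRH against IL-6 these were Tek -0.065 to 0.054, Tie1 -0.14 to 0.21, Vegfb -0.25 to 0.080 and Vegfc -0.72 to 0.023. For eNampt against CRH these were Vegfb -0.18 to 0.16, Tie1 -0.12 to 0.13 and Flt1 -0.10 to 0.055. For eNampt against IL-6 these were Angpt2 -0.017 to 0.11, Tie1 -0.10 to 0.20, Vegfc -0.019 to 0.65 and Vegfb -0.22 to 0.0027. Tek, Tie1 and Flt1 gave no value under the filter on dim genes. With 4 arrays a group and receptors near background, differences of this size cannot be resolved.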
